A study of Mus musculus with 34 samples.

Results

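The 7 genes described here mark the neurons of the cerebellar cortex. They are 5 genes of the granule cell lineage (Atoh1, Barhl1, Neurod1, Cbln1 and Cbln3) and 2 genes of Purkinje cells (Pcp2 and Calb1), out of 20145 named genes on the array. All probes whose RefSeq accession belongs to these 7 genes were taken, which gave 9 probes, with 2 each for Barhl1 and Neurod1. The brains came from 3 male C57BL/6J mice at 3 days of post-natal age, with no treatment in the labels, and each brain was sliced along 1 body axis. Mouse 1 gave 15 coronal fractions, mouse 2 gave 8 horizontal fractions and mouse 3 gave 11 sagittal fractions. Each fraction collects slices over a width of 500 microns, except sagittal fractions 1 and 11, which each pool 2 cut fractions. Every fraction was read on 1 single-colour array, so a series and its mouse cannot be told apart, and a p-value here measures the spread between positions in 1 mouse and not between animals. Neighbouring fractions are not independent of each other.

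Granule cells and Purkinje cells come from different birthplaces. Granule cell precursors leave the rhombic lip, spread over the cerebellar surface as the external granular layer and divide there under Sonic hedgehog that Purkinje cells release, whereas Purkinje cells come from the ventricular zone and form the only output of the cerebellar cortex. In the newborn mouse the external granular layer is still growing and most granule cells have yet to be made. Atoh1 is the basic helix-loop-helix factor of rhombic lip precursors, Barhl1 is a homeodomain factor of the same lineage, and Neurod1 is a basic helix-loop-helix factor of granule cells that leave the cell cycle. Cbln1 and Cbln3 code for cerebellins, secreted proteins of granule cells, and Cbln1 organizes the synapse of granule cells onto Purkinje cells. Pcp2 (Purkinje cell protein 2) codes for a modulator of G proteins, and Calb1 for the calcium buffer calbindin.

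Values are the log2 of the processed signal less the log2 of the 75th percentile of the same array, called log2 normalized signal below, so that 0 is the 75th percentile and 1 unit is a doubling. A probe was detected in a fraction when its spot was flagged well above background. Levels of different probes were not set against each other, because probes differ in brightness. Between 29598 and 37091 of 59305 spots were well above background on an array, and repeated spots of a probe differed by a median SD of 0.067 on the log2 scale. No array had a replicate, and the number of arrays limits the precision. The labels do not say at which end the numbering starts. The hindbrain list (Hox genes and others) was highest in coronal fraction 2, the midbrain list in fraction 6, the thalamus list in fraction 8, the striatum list in fraction 11, the cortex and hippocampus list in fraction 13 and the olfactory bulb list in fraction 15.

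**Figure D1:**
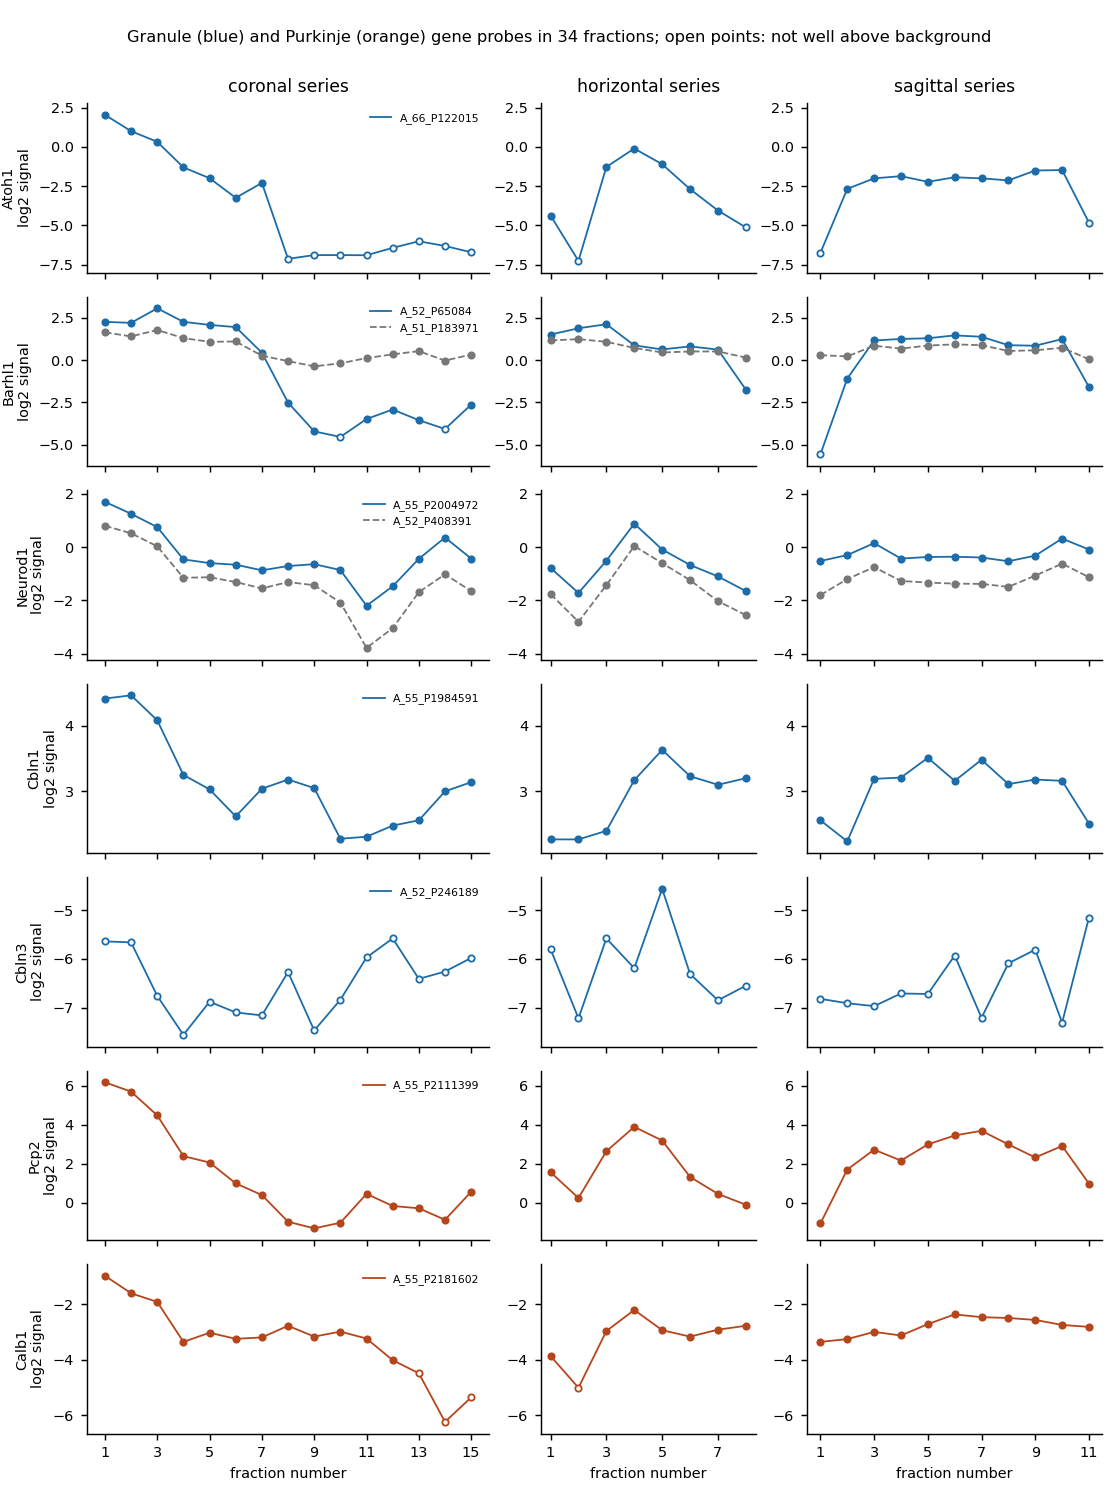
Log2 normalized signal (y axis, own scale for each gene) of the 9 probes against the fraction number (x axis) in the coronal, horizontal and sagittal series; blue and orange lines are granule and Purkinje genes, dashed grey lines the other probe of Barhl1 and Neurod1, and open points are fractions in which the probe was not well above background. Atoh1, Neurod1, Pcp2 and Calb1 were highest in coronal fraction 1 and in horizontal fraction 4, and the Cbln3 probe was detected in 1 of 34 fractions.

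The 6 members detected in the coronal series were all highest in 1 of coronal fractions 1 to 3. Of the 8 member probes that could be tested, 7 were higher in these fractions than in fractions 4 to 15, against 3.33% of the 34186 probes tested that were higher and 4.5% that were lower (limma, Benjamini-Hochberg adjusted p under 0.05). No member probe was lower. The calls of Pcp2, Cbln1 and the Neurod1 probe A_55_P2004972 held whichever of fractions 1, 2 and 3 was left out, and between 3 and 5 probes passed in these fits. With the slide as a block 5 of the 8 passed, without Calb1 and Barhl1 A_51_P183971, and 5 passed within the slide that held fractions 1 to 8, without Atoh1 and Barhl1 A_51_P183971. Fractions 1 to 3 all lay on that slide, so both fits compare them with fractions 4 to 8 and give the same differences. The block fit left out fraction 12, the only coronal fraction on its slide. Of all 34186 probes, 371, 412 and 884 were higher without fraction 1, 2 or 3 in turn. There were 1029 with the slide as a block and 1972 within the slide of fractions 1 to 8. In 7 of the 8 probes all 3 values of fractions 1 to 3 lay above all 12 values of fractions 4 to 15, which held for 2.74% of all probes. The median difference of all probes was -0.07. Fractions 1 to 3 were grouped with earlier results of these data known, so the test describes the size of the step and gives no independent support for where these genes are expressed. In such bulk fractions, fewer cells of a type and less RNA per cell cannot be told apart.

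Atoh1, the precursor gene, fell below detection along the coronal series. Its log2 normalized signal was 2.05, 1.01 and 0.33 in coronal fractions 1, 2 and 3, then -1.30, -1.99, -3.24 and -2.29 in fractions 4 to 7. From fraction 8 to fraction 15 it was not well above background in any fraction, at measured values between -7.13 and -6.01. The 2 groups did not overlap, and the mean of fractions 1 to 3 (1.13 ± 0.87, SD, n = 3) exceeded that of fractions 4 to 15 (-5.17 ± 2.25, SD, n = 12) by 6.31 on the log2 scale (SE 1.25, limma adjusted p = 0.0076). Only 4 of the 12 fractions of the second group measured the probe, so this difference carries no exact fold. It was 5.84 without fraction 1 and no longer passed (limma adjusted p = 0.0572), and 4.32 within the slide that held fractions 1 to 8 (adjusted p = 0.055). After the normexp background correction it was 3.40 (adjusted p = 7.53e-05). Detected signal reached as far as fraction 7, which stood 0.95 above fraction 6.

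Pcp2, the Purkinje gene, was detected in all 34 fractions. Its signal was 6.19, 5.71 and 4.49 in coronal fractions 1 to 3, and ranged from -1.31 in fraction 9 through a median of 0.12 to 2.40 in fraction 4 among the other 12. The groups did not overlap, and the difference was 5.27 (SE 0.69, 38.6-fold, limma adjusted p = 0.000582). It was 5.01 after normexp and 4.48 within the slide of fractions 1 to 8. Beyond the decline, Pcp2 had low secondary maxima at 0.46 in fraction 11 and 0.57 in fraction 15, which stood 1.32 and 1.88 above the lowest value between each of them and the nearest fraction with more signal.

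Calb1, the calbindin gene, had a smaller step and a broad plateau. Its signal was -0.98, -1.61 and -1.92 in coronal fractions 1 to 3, and lay between -3.36 and -2.78 in all of fractions 4 to 11. It fell to -4.02 in fraction 12 and was not well above background in fractions 13, 14 and 15. Among fractions 4 to 15 its values ran from -6.24 through a median of -3.25 to -2.78, all below those of fractions 1 to 3. The difference was 2.26 (SE 0.60, limma adjusted p = 0.0335), with 9 of the 12 fractions measured and so no exact fold, and it was 1.06 after normexp (adjusted p = 0.000523). The plateau was as high at fraction 8 (-2.78) as anywhere outside fractions 1 to 3. Calb1 is also made by neurons of many other brain regions, and their part in the plateau was not tested. The call was lost with quantile normalization (limma adjusted p = 0.053), with no detection filter (0.0613) and with a weaker detection flag (0.0535). It was also lost with the slide as a block (0.14) and when any 1 of fractions 1, 2 or 3 was left out (0.0659 to 0.167). The same held with fractions 1 and 2 (0.123) or fractions 1 to 4 (0.0586) as the group. Within the slide of fractions 1 to 8 the call was kept (1.62, limma adjusted p = 0.00966).

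Neurod1, the gene of granule cells that stop dividing, was highest in the first coronal fractions and had a second maximum near the other end of the series. Probe A_55_P2004972 gave 1.70, 1.25 and 0.75 in fractions 1 to 3, and fractions 4 to 15 ran from -2.20 in fraction 11 through a median of -0.65 to 0.36 in fraction 14. The difference was 1.98 (SE 0.36, 3.95-fold, limma adjusted p = 0.00467). The other probe, A_52_P408391, gave 0.80, 0.52 and 0.03 in fractions 1 to 3 and a difference of 2.21 (SE 0.47, 4.64-fold, limma adjusted p = 0.0114), which did not pass without fraction 1 (2.04, 0.0757) or without fraction 2 (2.18, 0.0715). The 2 probes correlated at r = 0.96 over the 34 fractions. Past its minimum in fraction 11, Neurod1 rose to a second maximum in fraction 14, which stood 2.56 above the minimum (5.90-fold) on the first probe and 2.76 (6.78-fold) on the other. In fraction 14 the cortex and hippocampus list was at 0.76 and the olfactory bulb list at 3.98, on a scale relative to each gene's coronal median, and their part in this maximum was not tested. Neurod1 is known to be made by young neurons of both tissues.

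Barhl1 stayed high well beyond fraction 3. Probe A_52_P65084 gave 2.26, 2.20 and 3.06 in fractions 1 to 3 and still 2.26, 2.08 and 1.95 in fractions 4 to 6. It then fell to 0.44 in fraction 7 and -2.51 in fraction 8, and was not well above background in fractions 10 and 14. The groups overlapped, since fraction 4 was level with fraction 1, and the difference of 4.27 (SE 1.45) did not pass the test (limma adjusted p = 0.0833). When fraction 4 was counted with fractions 1 to 3 the difference was 4.58 and passed (adjusted p = 0.0223). The other probe, A_51_P183971, was detected in all 34 fractions and moved over a much narrower range, from -0.37 to 1.78 in the coronal series against -4.54 to 3.06 for A_52_P65084. Its values were 1.64, 1.40 and 1.78 in fractions 1 to 3 and at most 1.30 in the others, a difference of 1.24 (SE 0.31, 2.36-fold, limma adjusted p = 0.0236). Without fraction 1, 2 or 3 it was 1.23, 1.34 and 1.15 and did not pass (adjusted p = 0.0812 to 0.101), nor did it with the slide as a block (0.87, 0.0963) or within the slide of fractions 1 to 8 (0.87, 0.11). Under the slide block A_52_P65084 differed by 1.66 (adjusted p = 0.265). The 2 probes correlated at r = 0.836 over the 34 fractions and disagreed on the size of the step, so no single fold is given for Barhl1. Over fractions 4 to 6, where Barhl1 stayed high, the midbrain list was at 2.52, 2.92 and 3.22 relative to each gene's coronal median. Barhl1 is known to be expressed in the midbrain as well, and the part of midbrain tissue in this shoulder was not tested.

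Cbln1, the synapse organizer, was detected in all 34 fractions and had the smallest step of the granule genes but for 1 Barhl1 probe. Its signal was 4.41, 4.46 and 4.08 in coronal fractions 1 to 3, and ran from 2.28 in fraction 10 through a median of 3.02 to 3.25 in fraction 4 in the others. The groups did not overlap, and the difference was 1.49 (SE 0.21, 2.81-fold, limma adjusted p = 0.000955). Cbln1 had further maxima of 3.18 in fraction 8, the fraction in which the thalamus list was highest, and 3.14 in fraction 15, where the olfactory bulb list was highest. They stood 0.56 (1.47-fold) and 0.86 (1.82-fold) above the dips that part them from higher values. Cbln3, the cerebellin of mature granule cells, was well above background in horizontal fraction 5 only (-4.56). It was not in the tested set, and with the weaker flag of the scanner software it was positive in 22 of 34 fractions.

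The members differed in how far their signal reached outside fractions 1 to 3. Atoh1 was not detected in 8 of the other 12 fractions, Calb1 in 3 and Barhl1 (A_52_P65084) in 2, while Neurod1, Cbln1 and Pcp2 were detected in all 12. Undetected values included, the SD over the 34 fractions was larger for Atoh1 (2.64) and Barhl1 A_52_P65084 (2.43) than for 99.9% of tested probes, and for Pcp2 (1.94) larger than for 99.7%. It was 1.00 for Calb1, 0.79 for Neurod1 (A_55_P2004972) and 0.57 for Cbln1, the last of which exceeded 81.6% of tested probes.

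The promoters of Atoh1 and Pcp2, whose profiles were the most alike among the members, are shown here. Those of Neurod1 and Barhl1, whose profiles were less like theirs over the 34 fractions, are shown for comparison. All come from RefSeq on GRCm38.p6, each with 250 bases before the start site and 50 from it. Capitals mark the E-box CANNTG, bound by helix-loop-helix factors such as Atoh1 and Neurod1, and AGGTCA or its reverse TGACCT, the half-site of receptors such as Rora. Both strands were searched, also for TATAAA, and where the promoter table lists several starts for a gene the outermost of those listed was taken. For Barhl1 this start is not the outer end of the annotated gene. The gene runs from 28907680 to 28917984, and the window, which ends at 28916918, lies inside it.
Atoh1 promoter, chr6:64728875-64729174, plus strand: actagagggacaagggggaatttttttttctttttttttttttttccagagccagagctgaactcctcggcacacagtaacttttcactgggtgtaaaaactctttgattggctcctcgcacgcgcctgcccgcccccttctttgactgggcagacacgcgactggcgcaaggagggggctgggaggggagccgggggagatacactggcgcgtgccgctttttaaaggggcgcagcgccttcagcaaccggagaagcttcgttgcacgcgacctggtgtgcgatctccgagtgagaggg
Pcp2 promoter, chr8:3625498-3625797, minus strand: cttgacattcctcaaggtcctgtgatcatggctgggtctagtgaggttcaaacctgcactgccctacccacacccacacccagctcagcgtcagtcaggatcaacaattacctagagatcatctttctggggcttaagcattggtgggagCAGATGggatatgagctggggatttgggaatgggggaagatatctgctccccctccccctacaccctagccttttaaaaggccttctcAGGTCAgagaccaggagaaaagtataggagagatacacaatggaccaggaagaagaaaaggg
Neurod1 promoter, chr2:79456587-79456886, minus strand: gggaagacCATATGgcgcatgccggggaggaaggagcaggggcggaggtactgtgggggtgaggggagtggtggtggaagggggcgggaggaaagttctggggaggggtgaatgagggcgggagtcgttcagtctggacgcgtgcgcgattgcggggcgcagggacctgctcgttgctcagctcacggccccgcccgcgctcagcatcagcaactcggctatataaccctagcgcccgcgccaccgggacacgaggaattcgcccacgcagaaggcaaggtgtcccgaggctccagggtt
Barhl1 promoter, chr2:28916619-28916918, minus strand: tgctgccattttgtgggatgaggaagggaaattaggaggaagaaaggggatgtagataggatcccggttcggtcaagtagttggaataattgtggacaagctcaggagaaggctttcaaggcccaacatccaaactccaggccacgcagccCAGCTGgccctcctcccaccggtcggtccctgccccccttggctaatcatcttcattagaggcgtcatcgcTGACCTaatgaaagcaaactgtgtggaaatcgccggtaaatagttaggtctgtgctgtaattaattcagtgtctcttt
The Atoh1 window held no E-box. Pcp2 held CAGATG at -100 and AGGTCA at -12, Neurod1 CATATG at -242, and Barhl1 CAGCTG at -99 and TGACCT at -28, counted from the start site to the first base of the match. Of 32851 mouse promoter windows 72.3% held CANNTG, 17.2% CAGATG, 16.3% CAGCTG and 16.3% AGGTCA, so such matches are common, and they are given as a description. Promoter windows for Cbln1 and Calb1 were not used here.

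**Figure D2:**
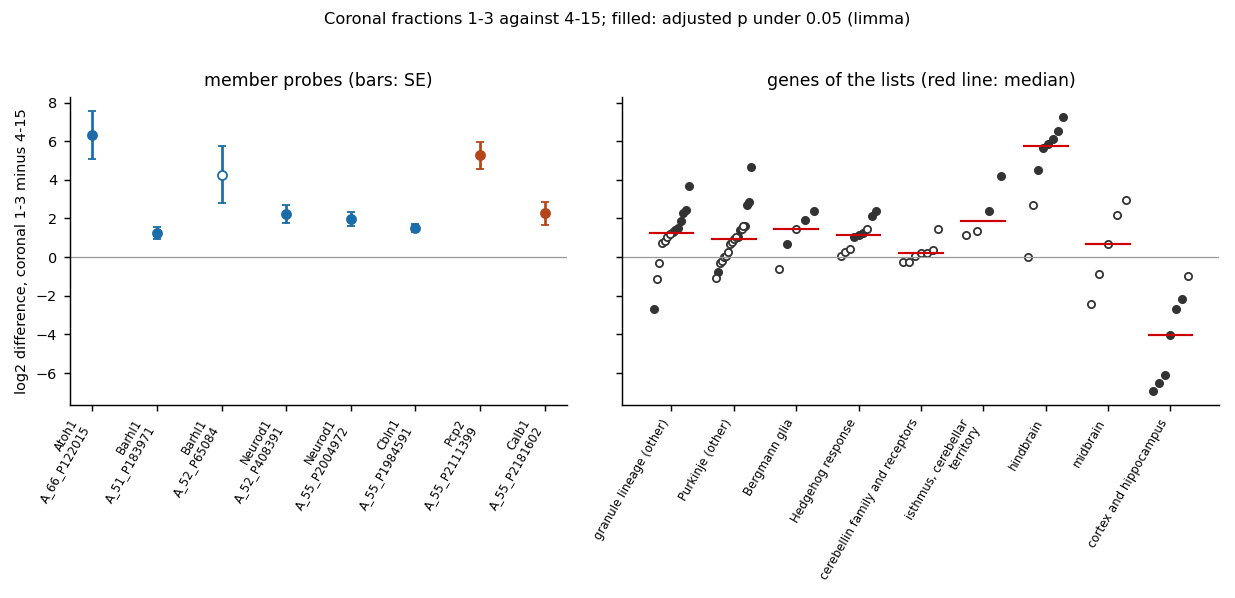
Log2 difference between coronal fractions 1 to 3 and 4 to 15 (y axis) for the 8 tested member probes with their SE (left) and for single genes of 9 lists with the list median in red (right); filled points passed the limma test. All 8 member probes lie above 0, 7 of them filled, and the medians of the hindbrain list and of the cortex and hippocampus list are 5.77 and -4.01.

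Lists of further genes give the setting of this step. Of the 14 tested genes of the granule lineage other than the members, 7 were higher in fractions 1 to 3 and 1 was lower, with a median difference of 1.25. The transcription factor Tlx3 was higher by 3.70 (SE 0.53, limma adjusted p = 0.00103) and was detected in 1 of the other 12 fractions. Nhlh1, a helix-loop-helix factor of young neurons, was higher by 2.45 (SE 0.29, limma adjusted p = 0.000378) and was detected in 11 of them. Gabrd, the delta subunit of the GABA-A receptor that mature granule cells use, was lower by 2.67 on the log2 scale, with means of -2.70 in fractions 1 to 3 and -0.04 in the others (adjusted p = 0.0302). All SE and adjusted p-values of the lists come from the same limma fit. Gabra6, another receptor subunit of mature granule cells, did not have detection in every series and was not tested.

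Of 19 further Purkinje genes, 6 were higher and 1 was lower, with a median of 0.93. Skor2, a co-repressor of Purkinje cells, was higher by 4.65 (SE 0.69, adjusted p = 0.00132) and was detected in 1 of the other 12 fractions. Car8, a carbonic anhydrase-related protein that binds the inositol trisphosphate receptor, was higher by 2.87 (7.30-fold, adjusted p = 0.0075), and the LIM homeobox gene Lhx1 by 2.72 (6.60-fold, adjusted p = 0.0301). Gad1, the GABA-synthesizing enzyme of many inhibitory neurons, and the Purkinje cell genes Rgs8 and Ppp1r17 differed by -0.19, -0.31 and -0.01 and did not pass. Shh, the mitogen that Purkinje cells give to granule precursors, had a difference of 0.93 (SE 0.51, adjusted p = 0.284).

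Genes of the Sonic hedgehog response of granule precursors were also higher in part. Of 9 tested, 5 were higher and 0 were lower, with a median difference of 1.15. The effector Gli1 was higher by 2.13 (SE 0.24, 4.37-fold, limma adjusted p = 0.000252). Gli2, detected in 11 of the other 12 fractions, was higher by 2.38 (limma adjusted p = 0.000439). The proliferation genes Mycn (0.42, adjusted p = 0.21) and Ccnd2 (0.26, 0.776) did not pass, and Ccnd1 did (1.05, 0.000378). Among Bergmann glia genes 3 of 5 were higher and 0 were lower, namely Gdf10 by 2.39 (5.26-fold), Hopx by 1.94 (3.83-fold) and Slc1a3 by 0.66 (1.58-fold). Of the 4 tested genes of the isthmus and cerebellar territory 2 were higher and 0 were lower. The engrailed gene En2 was higher by 4.18 (SE 1.18, adjusted p = 0.0425) and Pax2, detected in 2 of the other 12 fractions, by 2.39 (adjusted p = 0.00639), while Otx2 (1.15, adjusted p = 0.398) and Gbx2 (1.35, adjusted p = 0.452) did not pass. Of the 7 genes of the cerebellin family and its receptors 0 passed in limma, 1 had an unadjusted p under 0.05, and the median was 0.19. Of the 4 unipolar brush cell genes 0 passed, 1 had an unadjusted p under 0.05, and the median was 0.64.

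The hindbrain list shared the coronal step. Of its 8 tested genes 6 were higher in fractions 1 to 3, with a median difference of 5.77, led by Hoxa5 (7.24), Hoxb5 (6.55) and Hoxc4 (6.09). The part of hindbrain tissue in the members' step was not tested. The cortex and hippocampus list went the other way, with 6 of 7 genes lower and a median of -4.01. Its genes Fezf2 and Emx1 were not well above background in any of fractions 1 to 3, and Tbr1, a cortical transcription factor, differed by -6.09 (adjusted p = 0.00356).

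In the horizontal series the members and the hindbrain list were highest in different fractions. Atoh1 was -4.37 in fraction 1, not detected in fraction 2, then -1.27, -0.10, -1.10, -2.69 and -4.05 in fractions 3 to 7 and not detected in fraction 8. Pcp2 was 1.57, 0.25, 2.65, 3.90, 3.20, 1.33, 0.46 and -0.10 in fractions 1 to 8. Both were highest in fraction 4, as were Neurod1 (0.88 on A_55_P2004972) and Calb1 (-2.21), whereas the hindbrain list was at 0.76 in fraction 4 and highest, at 4.48, in fraction 6, on a scale relative to each gene's coronal median. The thalamus list was highest in fraction 4 too (1.84), and the lists of other granule and other Purkinje genes in fraction 5. From fraction 2 to fraction 1 Atoh1, Neurod1, Pcp2 and Calb1 all rose again, by 0.95 to 2.89, with Atoh1 and Calb1 not detected in fraction 2. Horizontal fraction 1 stood apart in earlier results of these data, and the hindbrain list went from -2.09 in fraction 2 to 3.10 in it, whose part in these values was not tested. Barhl1 differed, with 1.51, 1.88 and 2.12 in fractions 1 to 3 and 0.87 in fraction 4 (A_52_P65084). Cbln1 was highest in fraction 5 (3.63) and stayed at 3.10 to 3.23 in fractions 6 to 8, above its 2.27 to 2.40 in fractions 1 to 3. Horizontal fractions 3 and 4 lay on 1 slide and the other horizontal fractions on another. Slide and position therefore cannot be told apart in the maxima of fractions 3 and 4. No test was run on the horizontal series, and all 8 fractions come from 1 mouse.

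**Figure D3:**
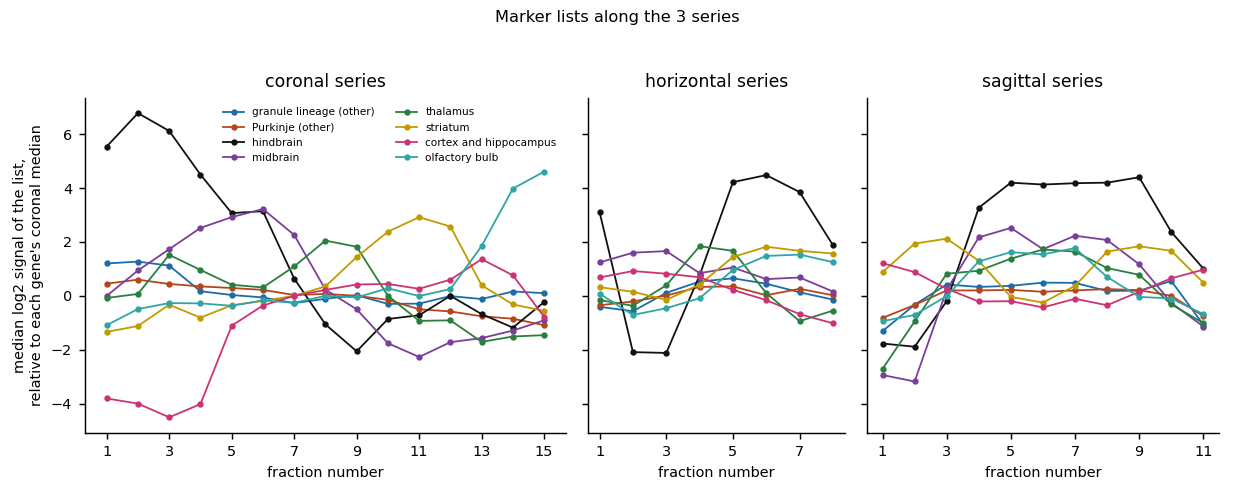
Median log2 signal of 8 marker lists (y axis, each gene relative to its own coronal median) against the fraction number (x axis) in the 3 series. The hindbrain list is highest in coronal fraction 2 and horizontal fraction 6, the midbrain list in coronal fraction 6 and the olfactory bulb list in coronal fraction 15.

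Across the sagittal series the members differed in how they changed away from fraction 6. Of the 8 tested probes 4 fell with distance from fraction 6 and 0 rose, against 9.97% of all probes that fell and 18.3% that rose (limma, adjusted p under 0.05). Pcp2 fell by 0.63 per fraction (SE 0.15, adjusted p = 0.012), from 3.46 in fraction 6 to -1.06 in fraction 1 and 0.99 in fraction 11. Barhl1 fell by 0.91 (SE 0.27, adjusted p = 0.0289) on A_52_P65084 and by 0.14 (SE 0.03, adjusted p = 0.00981) on A_51_P183971, and Cbln1 fell by 0.18 (SE 0.05, adjusted p = 0.0199). The slopes of Calb1 (-0.13, adjusted p = 0.058) and Atoh1 (-0.61, adjusted p = 0.0731) did not pass. Cbln1 ran from 2.24 in fraction 2 through a median of 3.16 to 3.51 in fraction 5, and Calb1 from -3.36 in fraction 1 through -2.75 to -2.37 in fraction 6. Both moved over a narrower range here than in the coronal series. Atoh1 lay between -2.67 and -1.47 in all of fractions 2 to 10 and was not detected in fractions 1 and 11. Neurod1 had slopes of 0.06 and 0.03 (limma adjusted p = 0.418 and 0.714) and the shape of 2 peaks, with maxima of 0.15 in fraction 3 and 0.32 in fraction 10. Fractions 10 and 11 lay on another slide than fractions 2 to 9, and the part of the slide in these maxima was not tested.

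With fractions 1 and 11 left out, or with the slide as a block, or within the slide that held fractions 2 to 9, 0 of the 8 probes passed. Of all 34186 probes, 1484, 927 and 843 fell in these fits, in that order, and 1950, 1215 and 1107 rose. Each of these fits also rests on fewer fractions or on an added term. Without fractions 1 and 11 the slope of Pcp2 was -0.31 (adjusted p = 0.11), that of Cbln1 -0.16 (0.218) and that of Barhl1 -0.33 (0.213) on A_52_P65084 and -0.11 (0.16) on A_51_P183971, whereas the slope of Atoh1 was 0.02 (0.938). With the slide as a block Pcp2 was at -0.49, Cbln1 at -0.22 and Barhl1 at -0.57 and -0.17. Without fraction 1 alone Pcp2 (-0.41, adjusted p = 0.0184) and Barhl1 on A_52_P65084 (-0.51, 0.0395) still passed with smaller slopes, and Atoh1 was at -0.31 (0.24). Cbln1 lost its call without fraction 1 (-0.18, adjusted p = 0.0618) and without fraction 11 (-0.17, 0.0626), and Barhl1 on A_52_P65084 without fraction 11 (-0.95, 0.0599), while Calb1 passed without fraction 11 (-0.16, 0.0439). The centre of the series is also not fixed by the labels. Pairs such as fractions 3 and 10 or 2 and 11 were close for several members: Barhl1 (A_52_P65084) was 1.16 and 1.24 in the first and -1.09 and -1.59 in the second. With a centre between fractions 6 and 7, chosen after these values were seen, 6 of the 8 probes fell with distance. Of all 34186 probes, 3507 fell and 6219 rose in that fit. Calb1 (-0.17, limma adjusted p = 0.00702) and Atoh1 (-0.66, limma adjusted p = 0.044) were among the 6 member probes. Between the sides of the series, taken as fractions 7 to 11 against 5 to 1, 0 of 34186 probes passed in limma (0.0%), of which 3263 had an unadjusted p under 0.05. Calb1 was higher on the side of the larger numbers in 5 of 5 mirror pairs, by a mean of 0.47 (SE 0.07, adjusted p = 0.423), and with the other centre this difference was 0.27.

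**Figure D4:**
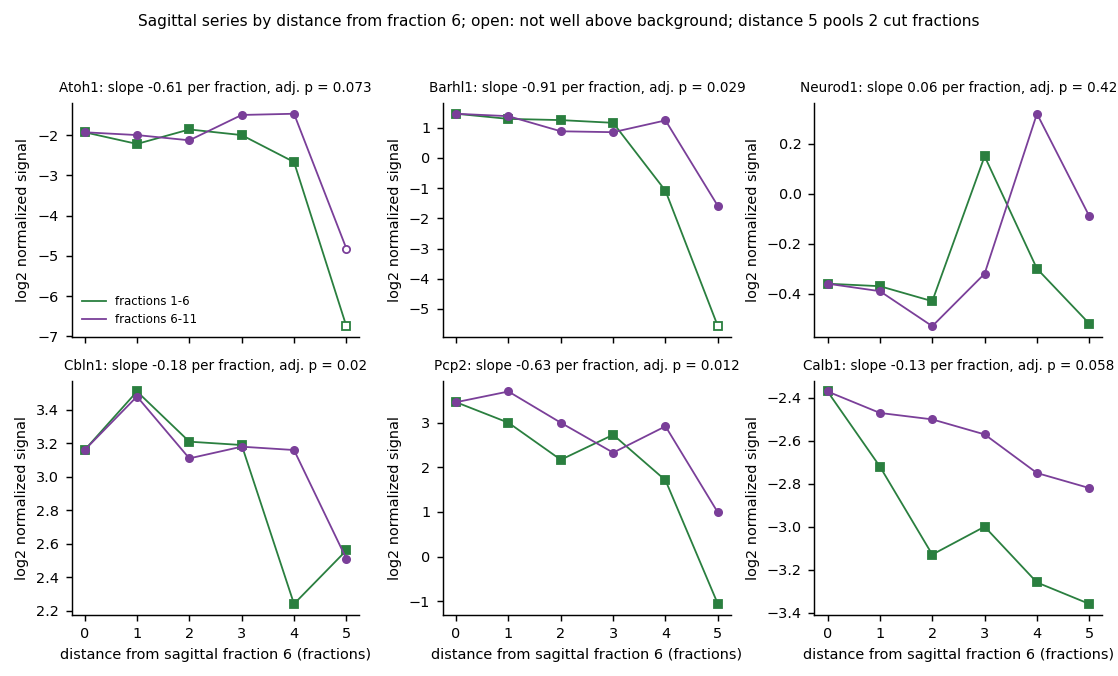
Log2 normalized signal (y axis) of 1 probe for each of 6 genes against the distance from sagittal fraction 6 in fractions (x axis); green squares are fractions 1 to 6, purple circles fractions 6 to 11, and open points were not well above background. Atoh1, Barhl1 and Pcp2 drop in the outermost fractions, and Neurod1 has its maxima in fractions 3 and 10.

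Granule genes were compared with Purkinje genes through the log2 ratio of their signals within an array, in which the scaling between arrays cancels. The 4 detected granule genes and 2 Purkinje genes gave 8 pairs, and 3 of the 8 differed between coronal fractions 1 to 3 and 4 to 15 (exact permutation test over 455 arrangements, two-sided, Benjamini-Hochberg adjusted over the 8 pairs). The log2 ratio of Neurod1 to Pcp2 was lower in fractions 1 to 3 (-4.23 ± 0.42, SD, n = 3) than in the others (-0.94 ± 1.38, n = 12), a difference of -3.29 (exact permutation adjusted p = 0.00879). That of Cbln1 to Pcp2 was -1.14 ± 0.69 against 2.64 ± 1.16, a difference of -3.78 (exact permutation adjusted p = 0.00879). That of Atoh1 to Calb1 was higher, at 2.64 ± 0.40 against -1.41 ± 2.20, a difference of 4.05 (exact permutation adjusted p = 0.0234). Atoh1 was not detected in 8 of those 12 fractions, and with dim values set to the lowest detected signal of the array the difference was 3.01 (exact permutation adjusted p = 0.0117). Pcp2 thus fell more steeply than Neurod1 and Cbln1 outside fractions 1 to 3, and Calb1 less steeply than Atoh1.

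The other 5 pairs did not pass. Atoh1 to Pcp2 differed by 1.04 (exact permutation adjusted p = 0.376), and the ratio held between -4.70 and -3.70 over fractions 1 to 6 while both signals fell. In fraction 7, the last in which Atoh1 was detected, the ratio was -2.69. The sign of the group difference depended on the setting. After normexp it was -1.61 (exact permutation adjusted p = 0.0044). It was -0.25 with dim values set to the lowest detected signal of the array and -0.16 within the slide of fractions 1 to 8. Barhl1 to Pcp2 changed along the series without a step between the 2 groups: the log2 ratio rose from -3.92 in fraction 1 to 0.95 in fraction 6 and returned to -3.94 in fraction 11. Its difference was -0.998 (exact permutation adjusted p = 0.452) on A_52_P65084 and -4.03 (0.00586) on the other probe. Neurod1 to Calb1 lay between 2.67 and 2.86 in fractions 1 to 3 and between 2.08 and 2.89 in fractions 4 to 10. It was lowest in fraction 11 (1.04) and stood at 2.55 in fraction 12. In fractions 13 to 15, where Calb1 was not detected, it lay between 4.05 and 6.61. The groups differed by -0.28 (exact permutation adjusted p = 0.846). Cbln1 to Calb1 differed by -0.77 (0.381) and Barhl1 to Calb1 by 2.01 (0.376). Within the slide that held coronal fractions 1 to 8, 0 of the 8 pairs passed (exact permutation adjusted p = 0.0952 for Neurod1 and for Cbln1 to Pcp2, 0.179 for Atoh1 to Calb1). The differences there were -2.59 for Neurod1 to Pcp2, -3.19 for Cbln1 to Pcp2 and 2.70 for Atoh1 to Calb1, and the small number of arrangements of these 8 fractions limits the p-values they can reach.

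**Figure D5:**
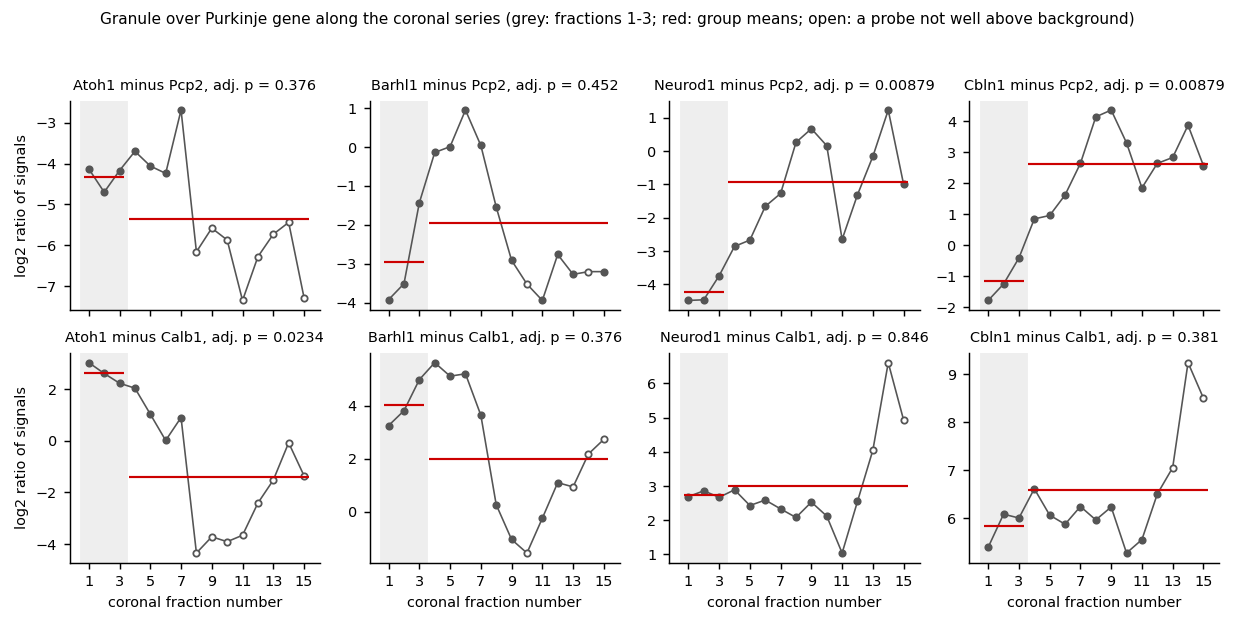
Log2 ratio of a granule gene to a Purkinje gene (y axis) against the coronal fraction number (x axis) for 8 pairs; the grey band marks fractions 1 to 3, red lines are the means of both groups, and open points have a probe that was not well above background. The ratios of Neurod1 and Cbln1 to Pcp2 are lowest in fractions 1 to 3, and that of Barhl1 to Pcp2 is highest in fraction 6.

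Along the sagittal series 4 of the 8 log2 ratios changed with distance from fraction 6 (100000 permutations, two-sided, adjusted over the 8 pairs). Neurod1 to Pcp2 rose by 0.68 per fraction (permutation adjusted p = 0.00096), Cbln1 to Pcp2 by 0.44 (permutation adjusted p = 0.0285) and Neurod1 to Calb1 by 0.19 (permutation adjusted p = 0.0324), and Barhl1 to Calb1 fell by 0.78 (permutation adjusted p = 0.0285). Neurod1 to Pcp2 was -3.81 in fraction 6, 0.55 in fraction 1 and -1.08 in fraction 11. Without the pooled outermost fractions this pair alone passed, at 0.43 per fraction (permutation adjusted p = 0.038). Atoh1 to Pcp2 had a slope of 0.02 (permutation adjusted p = 0.881), which was 0.44 after normexp and passed there (permutation adjusted p = 0.00792), and 0.33 without the outermost fractions (permutation adjusted p = 0.0952). After normexp the slope of Neurod1 to Calb1 was 0.08 and did not pass (permutation adjusted p = 0.137), and that of Cbln1 to Calb1 was -0.16 and passed (permutation adjusted p = 0.021).

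The study counts similarly expressed transcripts (SET), probes whose Pearson's r over the fractions reaches 0.85. The same measure was used here over 34 fractions, as a description over points that share series, scaling and slide. It covered 34186 probes, against 43199 in the deposited log2 table, so the counts need not equal those of the study. Pcp2 had 28 such probes, Atoh1 27, Barhl1 23 on A_52_P65084 and 1 on A_51_P183971, Cbln1 11, Calb1 4 and Neurod1 4 on A_52_P408391 and 2 on A_55_P2004972. Without horizontal fraction 1 the count was 31 for Pcp2 and 16 for Cbln1, and it changed by at most 1 for the other probes. When r also had to reach 0.85 within each of the 3 series, Pcp2 had 10 such probes, Atoh1 12, Barhl1 3 on A_52_P65084 and 0 on A_51_P183971, Cbln1 5, Calb1 1 and each Neurod1 probe 1. After normexp the count over all 34 fractions was 56 for Atoh1, and with quantile normalization 22 for Cbln1. Atoh1 and Pcp2, a precursor gene and a gene of post-mitotic Purkinje cells, correlated at r = 0.925 (0.934 in the coronal, 0.901 in the horizontal and 0.907 in the sagittal series). They shared 18 SET probes, which were 69.2% of those of Atoh1 and 66.7% of those of Pcp2, each leaving out the other. Atoh1 was detected in 22 of the 34 fractions, so its r values and its SET count rest in part on values near the floor. No other pair of different members reached 0.85 over the 34 fractions. Atoh1 and Barhl1 (A_52_P65084), of the same lineage, correlated at 0.806. By series this was 0.922 in the coronal, 0.114 in the horizontal and 0.953 in the sagittal series. Pcp2 and Calb1, of the same cell type, correlated at 0.665 (0.687, 0.501 and 0.751 in the same order). Cbln1 and Barhl1 (A_52_P65084) ran opposite in the horizontal series (r = -0.622) but not in the coronal (0.664) or sagittal series (0.743).

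The 5 genes most like each member were named by r over the 34 fractions, undetected values included. Pcp2 was most like Arhgef33 (r = 0.951), a guanine nucleotide exchange factor, Ptf1a (0.95), the factor of GABAergic cerebellar precursors, Skor2 (0.929), Kirrel2 (0.929) and Mybpc3 (0.928). Atoh1 was most like Arhgef33 (0.932), then Pcp2, Skor2 (0.925), Tex14 (0.907) and Kirrel2 (0.902). Arhgef33, Skor2 and Kirrel2 stood among the 5 closest of both. Barhl1 on A_52_P65084 was most like Pax3 (0.948), Pou4f2 (0.92), Ebf3 (0.915), Mab21l1 (0.907) and En2 (0.901), of which Pax3, Pou4f2, Ebf3 and En2 are transcription factors, and on A_51_P183971 like Sp5 (0.873), with En2 and Pax3 again among the 5 closest. Cbln1 was most like Gm2694 (0.904), a long non-coding RNA that lies next to Cbln1 on the same chromosome in the RefSeq annotation of GRCm38.p6. It was the only adjacent gene among the 36 pairs of a member and a like gene that were looked up. Akain1 (0.868), Tbc1d4 (0.861), Plekhd1 (0.853) and Cxxc5 (0.85) followed. Calb1 was most like Gtsf1 (0.889), Cadps2 (0.852), Car8 (0.851), Pdlim3 (0.844) and St18 (0.839). Neurod1 on A_55_P2004972 was most like Man1c1 (0.853), Zfp367 (0.84), Rad51ap1 (0.822), Lrig3 (0.817) and Tbata (0.813), and on A_52_P408391 like Nhsl1 (0.864), with Man1c1 and Zfp367 again among the 5 closest.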

How the data were processed

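Total RNA of 34 fractions of 3 P3 mouse brains was measured on single-colour Agilent mouse arrays. The authors processed the scans with Agilent Feature Extraction 10.10.1.1 and deposited intensity values per spot (processed signal, median signal and background) with flags, and a table of log2 values. In that log2 table, as deposited, array medians ran from -2.44 to -2.24, and 99.9% of the values of 43199 probes lay within 0.02 of the log2 processed signals once 1 offset per array was removed, so its scale is log2 and only the reason for its centring is not given in the sources used here.

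Spots of a probe were averaged, and log2 values less the array's log2 75th percentile were computed for 55681 probes, of which 26582 had a gene symbol through RefSeq accessions (GRCm38.p6). Tests were run on the 34186 probes (61.4%) that each of the 3 series detected at least once. Linear models came from lmFit and eBayes of limma 3.58.1 (R 4.3.3), with Benjamini-Hochberg adjusted p under 0.05 as the threshold, and permutation tests were run in Python 3.11.15 with numpy 2.4.6, scipy 1.17.1 and pandas 2.3.3. For the pairs and for the gene lists, the detected probe with the highest median signal stood for its gene, and other probes of list genes are not shown. Car8 was tested in its list on A_51_P392005, while its likeness to Calb1 is that of A_66_P126640.

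The members, the gene lists, the grouping of fractions and the tests were chosen with earlier results of these data known. Named genes were all members, the 5 genes most like each, and the 3 largest differences among the genes of a list that passed, apart from a gene that is not reported here. Lists for pineal gland (median coronal difference -0.59), hypothalamus (-0.48), striatum (-1.5), olfactory bulb (-1.8), midbrain (0.68) and thalamus (-0.12) served to place positions. A few further list genes (Gabra6, Gad1, Rgs8, Ppp1r17, Shh, Mycn, Ccnd1, Ccnd2, Otx2 and Gbx2) were named after their values were seen.

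Alternatives were the array's median, quantile normalization, normexp (offset 50), the deposited log2 table, other detection flags, limma-trend, other fraction groups, slide blocks and left-out fractions. Arrays lay on 5 slides, with coronal fractions 1 to 8 on slide 2 and sagittal fractions 2 to 9 on slide 4. The normexp correction was planned on the mean signal and used the median signal, the column in the files. The tests were also run on simulated data of 34186 probes. The coronal test found 85 of 100 probes shifted by 4 SD and 9 of 100 shifted by 2 SD, with 7 false calls. For the distance test a slope was planted and not a shift. The distance test found 70 of 100 probes with the larger slope and 6 of 100 with the smaller, with 2 false calls. Simulated fractions were independent of each other, unlike the measured ones, so the false calls do not cover smooth changes along a series.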

Additional observations from a re-analysis of the deposited data

Results flagged for a closer look

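Chance alone gives about 1 in 20 such groups a value that stands apart, and 2 of the 18 groups of 5 or 8 values searched did so. In the horizontal series Barhl1 on A_52_P65084 was at -1.75 in fraction 8, while the nearest of the other 7 fractions was at 0.62, a gap of 0.612 of the whole range. The mirror difference of Cbln1 between sagittal fractions 10 and 2 was 0.92, and the nearest of the other 4 pairs was at -0.01, a gap of 0.909 of the range. Sagittal fractions 10 and 2 lay on different slides.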

How the results depend on the processing

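No paired analysis was possible because each test lies within 1 series, and the fraction numbers are positions that pair no samples between mice. In the coronal comparison 2678 probes passed. The count was 1469 with no detection filter, 1680 with the weaker flag, 843 with fractions 1 and 2 as the group, 4563 within slide 2, and 652 to 1719 when fraction 1, 2 or 3 was left out. Of the 8 member probes 7 passed, against 5 with the slide as a block, 5 within slide 2, 3 with fractions 1 and 2 as the group and 3 to 5 when 1 of fractions 1 to 3 was left out. The fits with the slide block and within slide 2 rest on the same comparison of fractions 1 to 3 with 4 to 8. The main split was 1139 higher and 1539 lower, 1310 and 753 with the array's median, and 1411 and 1235 with quantile normalization. In the distance comparison 9666 probes passed, 6257 rising and 3409 falling. The count was 15140 after normexp, 2142 with the slide as a block, 1950 within slide 4 and 3434 without the pooled ends (6491 and 7120 without fraction 1 or 11 alone), and the member count fell from 4 to 0 with the slide block, within slide 4 and without both ends. The split was 10211 rising and 2174 falling with the array's median, 12459 and 2681 after normexp, and 4595 and 3635 with quantile normalization. Of the coronal pairs 3 passed, 5 after normexp and 0 within slide 2, and Atoh1 to Pcp2 turned from 1.04 to -1.61 after normexp, to -0.25 with the floor for dim values and to -0.16 within slide 2. Pairs and slopes that passed in neither fit also changed sign: Barhl1 to Calb1 (-1.02 with the other probe), Neurod1 to Calb1 (0.61 after normexp, 0.27 within slide 2) and Cbln1 to Calb1 (0.40 after normexp) in the coronal series, Barhl1 to Pcp2 (0.01 after normexp) and Atoh1 to Calb1 (0.16 without the pooled ends) in the sagittal series, the slope of Atoh1 (0.02 without the pooled ends), and the difference between the sagittal sides of Barhl1 A_52_P65084 (-0.26), Pcp2 (-0.03) and Atoh1 (-0.25) with the centre between fractions 6 and 7, and of Barhl1 A_51_P183971 (0.03) and Neurod1 A_52_P408391 (less than 0.01 in size) without the pooled ends. Of the sagittal pairs 4 passed, and 1 without the pooled ends. The cause was not tested. Over all settings, single genes, pairs and detection counts kept direction and side 351 times, 46 fell below the threshold in the same direction, 9 passed it, 19 values without a test moved and 15 changed sign, of which the Atoh1 to Pcp2 pair after normexp passed the test. The pairs within slide 2, the floor for dim values, the centre between fractions 6 and 7 and the fits without sagittal fraction 1, sagittal fraction 11 or horizontal fraction 1 were chosen after seeing the data. Signal over background limits Atoh1 in coronal fractions 8 to 15, Calb1 in 13 to 15 and Cbln3 nearly everywhere.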
